A study of Homo sapiens with 10 samples.

Results

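The microRNAs miR-23a, miR-27a, miR-24, miR-23b and miR-27b come from a pair of paralogous gene clusters, and their recovery was followed in RNA pulled out of cells by a probe that pairs with one messenger RNA. They were chosen by name as the guide strands of both clusters, passenger strands (written with an asterisk) left out, which gave 5 of 745 miRNA assays. All 5 sat on panel 1 of the 2 quantitative PCR panels used, which holds 375 miRNA assays. The purifications were HepG2 with a p21 probe, HepG2 with a STAT3 probe, HepG2 with a control probe, PC-3 with a p21 probe and PC-3 with a control probe. HepG2 is a human liver tumour line and PC-3 a human prostate cancer line. All groups were cultured cells transfected with their probe for 24 hours, after which the RNA held by the probe was taken up on streptavidin beads, a procedure called miRIP. p21 is a cyclin-dependent kinase inhibitor and STAT3 a cytokine-activated transcription factor. Each purification was made 1 time and each assay had 1 well per purification, so the differences below stand without replicates and carry no p-values. Probe sequences, and how much of each target mRNA came down, were not analysed here.

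A miRNA guides Argonaute proteins to messenger RNAs that pair with its seed, the short stretch near its 5′ end, and the bound messenger is translated less and decays faster. The hairpins of each cluster are cut from one primary transcript, but the mature strands then mature, load and decay separately, so members of one transcript need not be equally abundant. miR-23 is known for repressing glutaminase, miR-27 for repressing FOXO1 and the fat-cell regulator PPARG, and miR-24 for repressing MYC and the histone H2AX.

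The mature sequences show what the assays had to tell apart. They are given 5′ to 3′ from RefSeq (GRCh38.p14), with the seed, bases 2 to 8, in capitals, and all 5 members were matched there as the 3p strands.
hsa-miR-23a: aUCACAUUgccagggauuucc
hsa-miR-23b: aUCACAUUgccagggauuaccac
hsa-miR-27a: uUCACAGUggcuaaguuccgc
hsa-miR-27b: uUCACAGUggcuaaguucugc
hsa-miR-24: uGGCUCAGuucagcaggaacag
The members form 3 seed groups: miR-23a with miR-23b, miR-27a with miR-27b, and miR-24 alone. Counting from 1 at the 5′ end, miR-23a and miR-23b are identical over 20 of the 21 bases they share, with the change U19A, and miR-23b is 23 bases long. miR-27a and miR-27b are identical over 20 of 21 bases, with the change C19U. The seeds of miR-23 and miR-27 are themselves alike at 6 of 7 bases and differ by U7G. The sources used here do not say how well the assays separate paralogs that differ by 1 base.

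The clusters lie on different chromosomes. The miR-23a cluster spans 373 bases at chr19:13836287-13836659 on the minus strand, in the order MIR23A, MIR27A and MIR24-2, with 69 and 80 bases between neighbouring hairpins, inside the long noncoding gene MIR23AHG. The miR-23b cluster spans 881 bases at chr9:95085208-95086088 on the plus strand, in the order MIR23B, MIR27B and MIR24-1, with gaps of 140 and 479 bases, inside the span of the protein-coding gene AOPEP. Whether the hairpins lie in exons or introns was not looked up, since only gene spans were at hand. miR-24 is made from both loci. The hairpins MIR24-2 and MIR24-1 are shown because they carry the same mature strand (capitals) in different surroundings, so 1 assay reads both clusters.
MIR24-2: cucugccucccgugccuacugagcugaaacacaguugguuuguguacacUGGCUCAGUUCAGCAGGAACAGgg
MIR24-1: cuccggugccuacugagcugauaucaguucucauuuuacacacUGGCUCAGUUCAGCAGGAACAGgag

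The values were quantification cycles (Cq), the PCR cycle at which the signal crosses a threshold, so that 1 cycle lower stands for about 2 times the RNA. A Cq of at most 35 counted as detected. On panel 1 that held for 128, 139 and 108 of 375 miRNA assays in the HepG2 p21, STAT3 and control purifications, and for 38 and 8 in the PC-3 p21 and control purifications. The only error that could be measured was technical. From reference assays carried by both panels, the SD was 0.63 cycles for single Cq values (22 pairs of wells) and 0.72 for a difference between a target and a control purification (11 pairs). Carried to the difference between the shifts of 2 assays, this is 1.02 cycles. These SDs also hold offsets between the panels, which cancel between assays of one plate. For pairs of members, all on panel 1, the 1.02 is therefore only a rough scale. Liver-enriched miRNAs, used as a check on HepG2, were detected for 4 of 6 with the STAT3 probe, and for 0 of 6 with the p21 or control probe in HepG2 and in both PC-3 purifications. The lowest Cq of the 4 was 33.67, and miR-122 was not among them. The list thus did not mark HepG2 with the p21 or control probe.

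All 5 members were detected in all 3 HepG2 purifications, where 34.1% (p21), 37.1% (STAT3) and 28.8% (control) of the panel was detected. In PC-3 the p21 purification held 3 of 5 (panel share 10.1%) and the control purification 0 of 5 (2.13%). hsa-miR-23a, the first hairpin of its cluster, had a Cq of 27.62 with the p21 probe, 27.32 with the STAT3 probe, against 31.45 with the control probe in HepG2. In PC-3 it had 34.21 with the p21 probe and no Cq with the control probe. The p21 and STAT3 values of miR-23a in HepG2 lay within the SD of repeated wells, and both were well clear of the control.

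hsa-miR-24, which both loci produce, had a Cq of 27.06 with the p21 probe, 28.32 with the STAT3 probe, against 30.25 with the control probe in HepG2. In PC-3 it had 32.30 with the p21 probe and 36.38, above the limit, with the control probe. It was the only member with any Cq in the PC-3 control purification, and its 5 values did not come within the SD of repeated wells of each other.

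hsa-miR-27a had a Cq of 29.24 with the p21 probe, 30.28 with the STAT3 probe, against 31.60 with the control probe in HepG2, and 34.91 with the p21 probe in PC-3, just under the limit. The members encoded on chromosome 9 alone, miR-23b and miR-27b, were later than the other members in every purification that detected them. hsa-miR-23b had a Cq of 30.68 with the p21 probe, 30.57 with the STAT3 probe, against 32.30 with the control probe in HepG2, and 38.35, above the limit, with the p21 probe in PC-3. hsa-miR-27b had 30.51 with the p21 probe, 31.04 with the STAT3 probe, against 32.01 with the control probe in HepG2, and no Cq in PC-3. For both, the p21 and STAT3 values lay within the SD of repeated wells of each other. In the HepG2 p21 purification miR-24 was 7th and miR-23a 8th lowest in Cq of 128 detected assays, while with the STAT3 probe miR-23a was 4th and miR-24 8th of 139, and with the control probe miR-24 was 6th and miR-23a 17th of 108. Such ranks mix abundance with the efficiency of each assay, which was not analysed here.

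**Figure D1:**
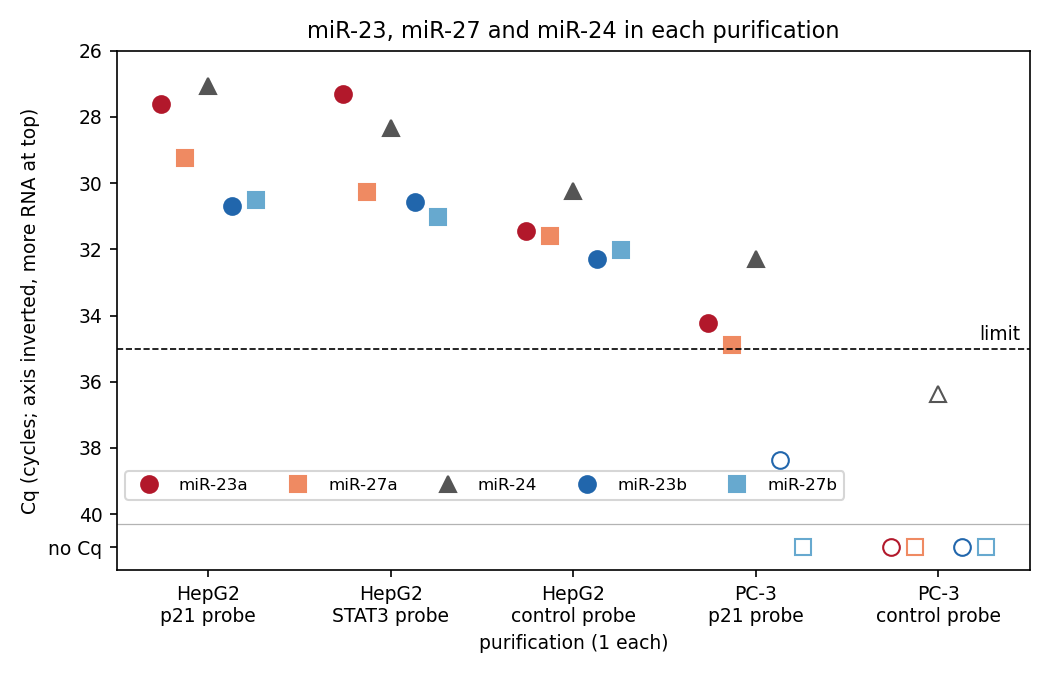
Cq of each member (cycles, inverted axis) in the 5 purifications, 1 well each; filled symbols are at or below the limit of 35 (dashed), open symbols above it or without a Cq. miR-23a and miR-24 stand highest in the HepG2 p21 and STAT3 purifications, and only miR-23a, miR-27a and miR-24 pass the limit in PC-3 with the p21 probe.

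With the p21 probe in HepG2 all 5 members had a lower Cq than with the control probe, by 1.50 (miR-27b) to 3.84 cycles (miR-23a). So had most of the panel: the median over the 87 miRNA assays detected with both probes was 1.30 cycles, and 54.0% of them were at least 2-fold higher without centring, as 5 of 5 members were. Relative to that median miR-23a was 2.53 log2 units higher (5.80-fold, 12th of 87), miR-24 was 1.89 higher (3.71-fold, 20th) and miR-27a 1.06 higher (2.09-fold, 32nd). miR-23b (0.31) and miR-27b (0.20) were near the panel median, less than the SD of repeated wells from it. Thus 3 of 5 members were at least 2-fold above the median and 0 were 2-fold below, where 37.9% of the 87 assays were 2-fold above and 39.1% 2-fold below. All 5 members lay above the panel median, from 0.20 to 2.53. Their own median of 1.06 lay inside the middle 50% of single assays of the panel (-1.44 to 1.73). A median of 5 assays varies less than single assays do, so this does not show whether the group stood apart. The 3 members 2-fold above were those that the chromosome 19 cluster encodes, miR-24 being encoded on chromosome 9 as well.

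With the STAT3 probe in HepG2, set against the same control purification, miR-23a stood further out while the other members were close together. miR-23a was 4.13 cycles earlier than with the control probe, 3.64 log2 units above the panel median of 0.49 (12.5-fold), the 2nd highest of 87 assays. miR-24 was 1.44 above the median (2.71-fold), miR-23b 1.23 (2.35-fold), miR-27a 0.83 (1.78-fold) and miR-27b 0.48 (1.40-fold). Again 3 of 5 members were at least 2-fold above the median and 0 below, where 32.2% of 87 assays were above and 25.3% below. All 5 again lay above the panel median, and their own median of 1.23 was inside the middle 50% of single assays (-1.07 to 1.34), near its upper end. Here the 2-fold size was reached by miR-23b and missed by miR-27a, the other way round than with p21, but each by less than the SD of repeated wells.

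**Figure D2:**
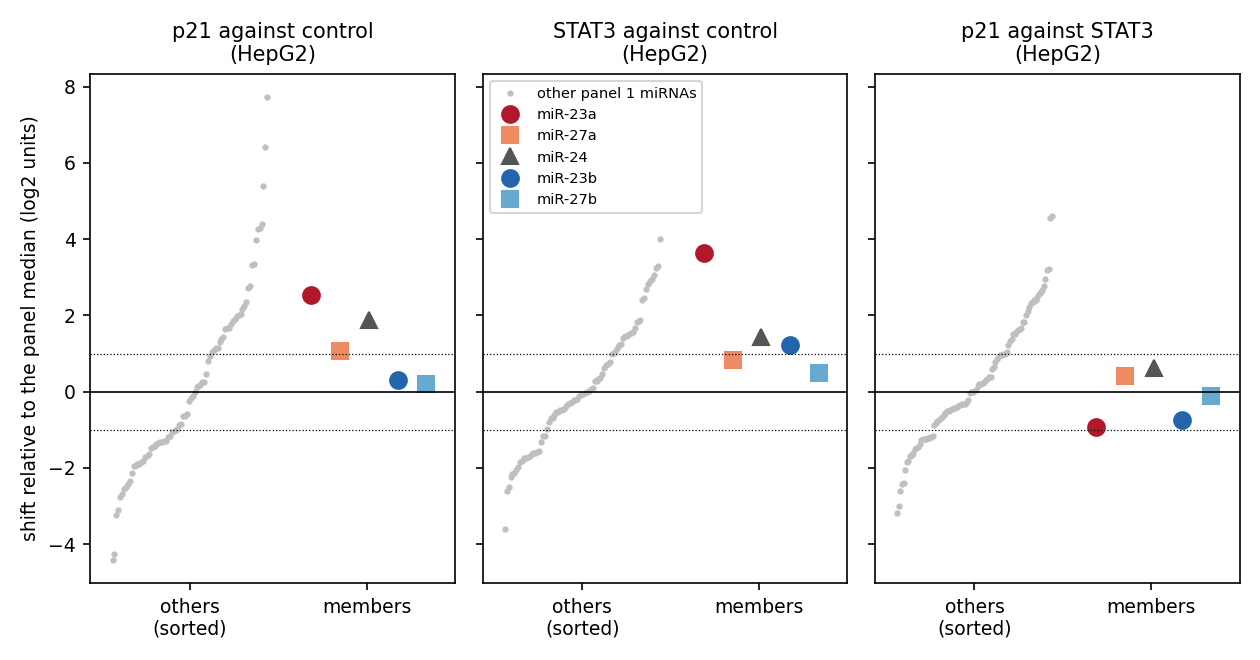
Shift of each member relative to the panel 1 median (log2 units, positive for more RNA with the first-named probe), beside all other miRNA assays detected in both purifications (grey, sorted); dotted lines mark 2-fold. miR-23a leads the members against the control, at 2.53 with the p21 probe, 3.64 with the STAT3 probe, and no member passes 2-fold between the p21 and STAT3 purifications.

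Within the clusters, no pair of members differed in shift by over 2 times the technical SD with the p21 probe. With the STAT3 probe miR-23a differed by more than that from both of its cluster mates, and no other pair did. This comparison needs no normaliser, since both assays are on the same plate and any shift of the plate cancels. The SD used here does hold offsets between panels, so multiples of it are a rough guide. On the chromosome 19 cluster, miR-23a shifted by 2.81 log2 units more than miR-27a and 2.20 more than miR-24 with the STAT3 probe, which is 2.74 and 2.15 times the SD of 1.02 for such a difference. With the p21 probe the corresponding differences were 1.47 and 0.64, or 1.44 and 0.63 times the SD. miR-27a and miR-24 differed by less than that SD with both probes (-0.83 with p21 and -0.61 with STAT3, miR-27a minus miR-24). On the chromosome 9 cluster, miR-23b and miR-27b differed by 0.11 with p21 and 0.75 with STAT3, both under the SD. The shift of miR-23b minus that of miR-24 was -1.58 with p21 and -0.21 with STAT3, and that of miR-27b minus miR-24 was -1.69 with p21 and -0.95 with STAT3. Of the 8 pairs within a cluster or between paralogs, 4 differed by at least 1 log2 unit with p21 and 3 with STAT3. Over all pairs of the 87 assays that share was 74.7% with p21 and 68.7% with STAT3, higher than among the 8 pairs of members with each probe. The 8 pairs share members, and the difference in share was not tested.

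Between the paralogs, the difference was in the miR-23 pair. The Cq of miR-23b lay 3.07 cycles above that of miR-23a with the p21 probe, 3.25 above it with the STAT3 probe, but 0.84 above it with the control probe. miR-23a therefore shifted by 2.22 log2 units more than miR-23b with p21 (4.67-fold, 2.17 times the SD). With STAT3 it shifted by 2.41 more (5.32-fold, 2.36 times the SD). The 2 share a seed, and how well the assays separate them is not known here. Pairing with the captured mRNAs was not tested. For miR-27b and miR-27a the gap was 1.27 with the p21 probe, 0.76 with the STAT3 probe, against 0.41 with the control probe, changes of 0.86 and 0.35 that lay under the SD. Both paralog results share the control purification, so an error in the control well of miR-23a or miR-23b would enter p21 and STAT3 alike. On the p21 plate the 3 wells of the UniSp3 calibrator, a template that should give the same Cq everywhere, shifted by -3.85 to -1.08 against the control plate. Their SD of 1.42 gives 2.01 for a difference between 2 assays, close to the 2.22 seen for miR-23. That SD rests on 3 wells and owes much to 1 of them, well B23, which gave the -3.85. On the STAT3 plate the same wells shifted by -1.38 to -1.15, an SD of 0.13. These wells hold no variation between transfections or purifications.

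**Figure D3:**
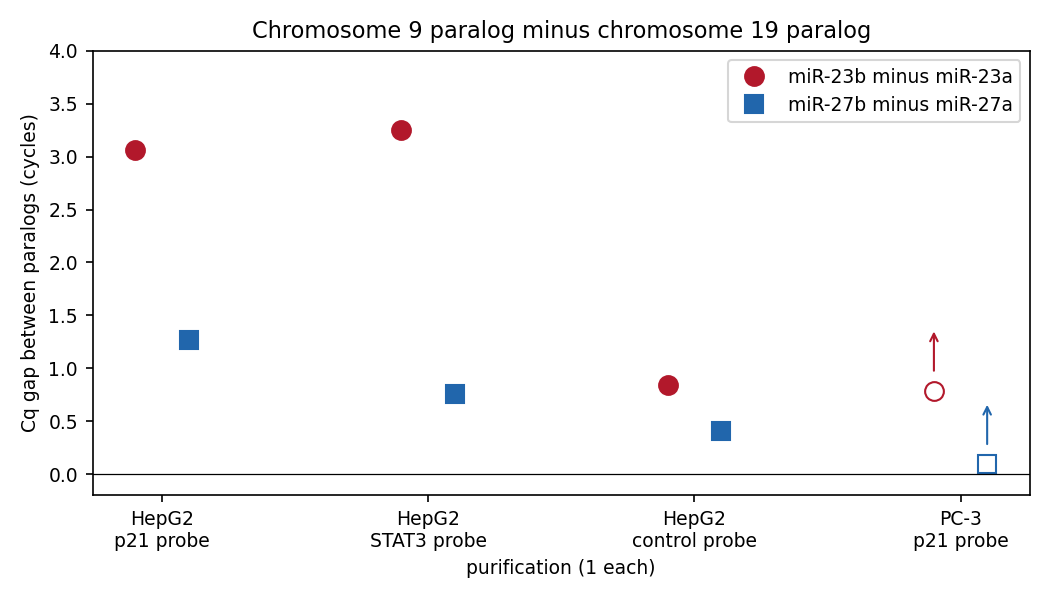
Cq of the chromosome 9 paralog minus Cq of the chromosome 19 paralog (cycles) in each purification with a detected paralog; open symbols with arrows are lower bounds with the undetected paralog set to Cq 35. The miR-23 gap is 3.07 and 3.25 with the p21 and STAT3 probes and 0.84 with the control probe in HepG2, and the miR-27 gap in HepG2 lies between 0.41 and 1.27.

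Set against each other without the control, the HepG2 p21 and STAT3 purifications differed by less than 2-fold for each of the 5 members once centred on the panel median. Relative to the median of 102 assays detected with both (0.64 cycles towards p21), the shifts were 0.62 for miR-24, 0.40 for miR-27a, -0.11 for miR-27b, -0.75 for miR-23b and -0.94 for miR-23a. Thus 0 of 5 were 2-fold higher or lower, where 28.4% of the 102 assays were 2-fold higher and 22.5% lower. Without any centring both miR-23 paralogs were level between the purifications (-0.30 for miR-23a and -0.11 for miR-23b), while miR-24 was 1.26 and miR-27a 1.04 higher with p21, so 2 of 5 were 2-fold higher where 41.2% of the assays were. The shifts of miR-23a and miR-23b differed by -0.19 in this comparison, and those of miR-23a and miR-24 by -1.56, or 1.52 times the SD. Centred on 6 reference assays (U6, both SNORDs and 3 miRNAs), 3 of 5 were instead at least 2-fold lower with p21: miR-23a at -1.95, miR-23b at -1.76 and miR-27b at -1.13. The panel's share under that centre was not counted. The 3 UniSp3 wells differed by -2.48 (well B23) to 0.29 between these plates, which gives 1.98 for a difference between 2 assays.

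How far the members stood above the control depended on what was subtracted. RNAs that are no miRNAs (U6 of the spliceosome, and SNORD38B with SNORD49A of the nucleolus) also had lower Cq with the target probes, by means of 2.44 cycles with p21 and 1.75 with STAT3. Centred on these 3, the members' median was -0.07 with p21 and -0.03 with STAT3, and only miR-23a stayed at least 2-fold higher (1.40 and 2.38). Centred on 6 reference assays, which add miR-191, miR-423-5p and miR-103, the medians were -1.36 and -0.38. Relative to these assays 3 of 5 members were at least 2-fold lower with p21 and 1 of 5 with STAT3. All 5 still had a lower Cq than with the control probe. The mean of the 6 reference assays thus shifted further towards the target probes than the members' median did. miR-23a then stood at 0.11 with p21 and 2.03 with STAT3. Over 6 choices of centre miR-23a was above 0 in all 6 with both probes. It ran from 0.11 to 6.12 with p21 and from 2.03 to 5.43 with STAT3. The 0.11 is below the SD of 0.72, and the panel's share above 0 under all 6 centres was not counted. miR-24 was above 0 in 5 of 6 with each probe, and miR-27a, miR-23b and miR-27b in 4 of 6. A centre moves all assays of a panel in a comparison by one amount, so it cannot change the members' order. The member with the largest shift is thus always the last to reach 0. The panel's shares 2-fold higher or lower were counted only on the panel median and without centring. Counts of members under the other centres thus have no panel share beside them and are not results particular to the members.

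**Figure D4:**
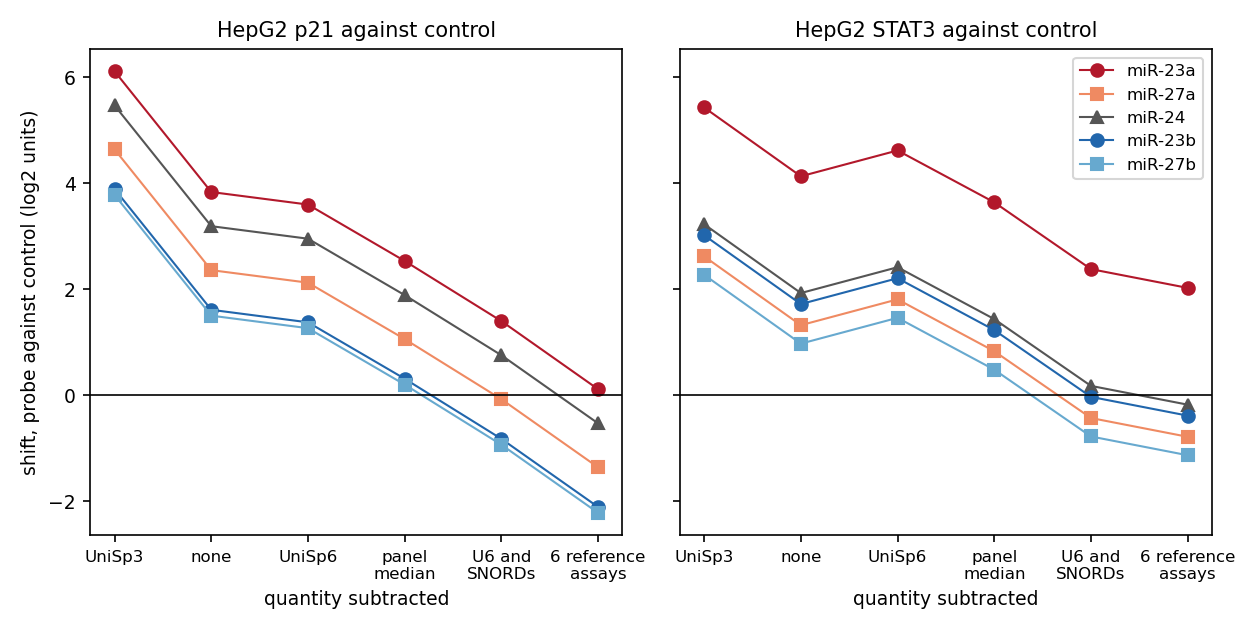
Shift of each member against the control probe in HepG2 (log2 units) after subtracting the quantity named on the horizontal axis, for the p21 (left) and STAT3 (right) purifications. The lines run parallel, and miR-23a, the member with the largest shift, stays above 0 throughout. With p21 it does so by only 0.11 on the 6 reference assays. Every other member is below 0 once the 6 reference assays are subtracted.

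The authors' folds rest on the same Cq values. For the p21 probe in HepG2 the authors' deposited table lists miR-23a at 12.1-fold, miR-24 at 7.76-fold, miR-27a at 4.36-fold, miR-23b at 2.60-fold and miR-27b at 2.41-fold. For the STAT3 probe the authors' deposited table lists 24.6-fold for miR-23a, 5.34-fold for miR-24, 4.63-fold for miR-23b, 3.51-fold for miR-27a and 2.76-fold for miR-27b. These folds follow from the Cq values with the UniSp6 spike-in as the normaliser, to within 0.01 log2 units for each member.

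In PC-3 miR-23a, miR-27a and miR-24 were at or below the limit with the p21 probe and no member was with the control probe. The difference was slight for miR-27a, at 34.91 with the p21 probe, and miR-24, which is encoded on chromosome 9 as well, had a Cq of 36.38 with the control probe. miR-24 was at least 6.49-fold higher with the p21 probe without centring, with the control set to the limit, and at least 1.75-fold higher relative to the panel. That panel centre of 1.89 cycles rests on 6 assays detected with both probes, none of them a member, of which 33.3% were 2-fold above it and 83.3% 2-fold higher without centring. For miR-23a the uncentred bound was 1.73-fold and for miR-27a 1.07-fold, and after centring neither gave a bound above 1. miR-23b and miR-27b were detected with neither probe, so nothing can be said of their change. Detection was lost with the control probe for 32 assays of the panel and gained for 2. The 3 members detected had Cq ranks of 11 (miR-24), 24 (miR-23a) and 37 (miR-27a) of 38, and in the authors' deposited table they stand at 4.61-fold, 1.23-fold and 0.759-fold. miR-23a preceded miR-27a by 0.69 cycles in this purification, against 1.62 with the same probe in HepG2, and followed miR-24 by 1.91, against 0.56 in HepG2. These changes of 0.93 and 1.35 are 0.91 and 1.32 times the SD for a difference between 2 assays. The PC-3 wells of miR-23a and miR-27a lay near the limit.

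All 5 members were recovered at higher levels from HepG2 than from PC-3. With the p21 probe miR-23a was 6.60 cycles earlier in HepG2 than in PC-3, miR-27a 5.67 and miR-24 5.24, where the 31 assays detected in both had a median of 2.50. Relative to that median they were 4.09, 3.16 and 2.74 log2 units higher in HepG2 (17.0-fold, 8.95-fold and 6.68-fold), 2nd, 6th and 8th of 31. All 3 members measured in both were thus 2-fold higher, where 41.9% of the assays were 2-fold above the median, 29.0% 2-fold below it and 71.0% 2-fold higher without centring. Relative to the same median, miR-27b was at least 3.96-fold and miR-23b at least 3.52-fold higher in HepG2. Both were detected in HepG2 only, as were 97 assays of the panel in all, against 7 detected in PC-3 only. The median and ranks leave such assays out. The mean difference of U6 and both SNORDs between these purifications was 0.50 cycles, and under each of the 6 centres the 3 members stayed at least 2.74 log2 units higher in HepG2. With the control probe 5 of 5 members were detected in HepG2 and 0 in PC-3. Of the whole panel, 102 assays were then detected in HepG2 only and 2 in PC-3 only. The uncentred bounds there ran from 6.52-fold (miR-23b) to 26.9-fold (miR-24), and relative to a panel centre of 6 assays from 2.16-fold to 8.92-fold. Of those 6 assays 33.3% were 2-fold above the centre and 83.3% 2-fold higher without it. Of the 4 lists of other miRNAs looked at with the p21 probe, blood-cell miRNAs were detected for 3 of 6 in HepG2 and 0 in PC-3, and stromal miRNAs for 3 of 4 in HepG2 and 0 in PC-3. Liver miRNAs were detected for 0 of 6 in both lines. miR-221 and miR-222, chosen as PC-3 markers, were detected for 2 of 2 in both, with a lowest Cq of 29.69 in HepG2 and 33.64 in PC-3. With the control probe in HepG2, 4 of 6 blood-cell, 3 of 4 stromal, 0 of 6 liver and 2 of 2 PC-3 markers were detected. In PC-3 the control purification held 0 of each list. The part of these differences in the result was not tested. The lines were not compared for total miRNA, and fewer cells, less captured RNA and less miRNA per cell cannot be told apart here.

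Passenger strands of the same hairpins, on panel 2, tell the 2 miR-24 loci apart. They are shown because their 3′ parts differ while bases 2 to 8 (capitals) are the same.
miR-24-2*: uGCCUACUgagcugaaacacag
miR-24-1*: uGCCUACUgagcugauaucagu
Of 5 such assays (the strands of miR-23a, miR-24-2, miR-23b, miR-24-1 and miR-27b), 2 were detected, both with the STAT3 probe in HepG2, where 31.6% of panel 2 was detected. miR-24-2* from chromosome 19 had a Cq of 33.58 with the STAT3 probe and 37.59 with the p21 probe, against 39.41 with the control probe. miR-23b* had 34.35 with the STAT3 probe and 37.51 with the p21 probe, against 36.82 with the control probe. miR-24-1* from chromosome 9 gave no Cq in any purification. None of the 5 gave a Cq in PC-3, where 4.05% of panel 2 was detected with the p21 probe. In HepG2 miR-23a* gave 37.43 (p21) and 36.13 (STAT3) and miR-27b* 35.92 (STAT3), all above the limit. Panel 2 gained detected assays with the STAT3 probe as a whole, at 31.6% against 4.59% with the control probe.

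The miRNAs nearest in pattern to each member are given as a description. With 77 assays and only 4 fellow members, a non-member in first place says little. The likeness was the root mean square difference in Cq over the 3 HepG2 purifications, each of 77 assays centred on its own mean, and 3 values a miRNA are few. Nearest to miR-23a were miR-15b (0.33 cycles), miR-484 (0.39) and miR-125a-5p (0.40), while its cluster mates miR-24 and miR-27a came 8th (0.93) and 18th (1.15) and its paralog miR-23b 16th (1.10). Nearest to miR-24 were miR-20a (0.17), miR-181a (0.18) and miR-221 (0.19), with miR-27a 5th (0.35). Nearest to miR-27a were miR-93 (0.14), miR-221 (0.19) and miR-20a (0.24), with miR-24 7th and miR-27b 8th (both 0.35). For miR-23b they were miR-222 (0.08), miR-99b (0.21) and miR-30b (0.21), with miR-27b 7th (0.33). For miR-27b they were miR-30b (0.14), miR-665 (0.17) and miR-342-3p (0.25), with miR-23b 8th (0.33). All members but miR-23a lay within 0.70 cycles of each other by this measure, which is not on the scale of the technical SDs above.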

How the data were processed

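PCR data of 5 purifications, each run on 2 panels (10 samples), were used. Per the labels' protocols, cells received a probe, RNA held by it was collected on streptavidin Dynabeads and extracted in TRIzol, and Exiqon SYBR Green panels read the miRNAs. The sources used here name no instrument, threshold or software. The authors deposited unnormalised Cq values, 1 well per assay, with uncalled wells marked undetermined. The authors also deposited fold ratios, per the file headers 2 to the power of minus ΔΔCt against an unnamed housekeeping gene. Their column titles say log, but no value is negative.

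The shift of an assay was its Cq in the second-named purification minus that in the first-named, for assays at or below Cq 35 in both, centred on the panel's median miRNA shift. At least 1 log2 unit counted as 2-fold. With 1 side undetected, a lower bound set it to Cq 35. No test was possible with 1 purification per condition. The SD of repeated wells covers technical error and offsets between panels, not transfection or purification. Alternatives were 5 other centres, Cq limits of 32 and 37, undetected wells set to 35, and the authors' folds. The named miRNAs were the 5 members, the passenger strands and the 3 nearest patterns of each member. Members, lists and rules were chosen with earlier results of these data known. The calculation was tested on simulated data. Python 3.11.15, pandas 2.3.3 and numpy 2.4.6 were used.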

Additional observations from a re-analysis of the deposited data

How the results depend on the processing

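The members' median shift and the number at least 2-fold higher depended on the centre. A centre moves every assay of the panel alike, and the panel's shares were counted only on the panel median and without centring. For p21 against control in HepG2 the median of 1.06 (3 of 5 members) became 2.36 (5 members) without centring, -1.36 (0 members) on 6 reference assays, -0.075 (1 member) on U6 and the SNORDs, 4.64 (5 members) on UniSp3, 2.13 (5 members) on UniSp6 and 2.13 (5 members) in the authors' deposited table. On the 6 reference assays miR-27a stood at -1.36 and miR-24 at -0.53, and on U6 and the SNORDs miR-27a stood at -0.075. The reference assays put 3 members at least 2-fold lower, against 0 on the panel median. For STAT3 against control the median of 1.23 (3 members) became -0.38 (1 member) on the reference assays, -0.030 (1 member) on U6 and the SNORDs, 3.02 (5 members) on UniSp3, 2.21 (5 members) on UniSp6 and 2.21 (5 members) in the authors' deposited table. On the reference assays 1 member was 2-fold lower. There miR-24 stood at -0.18 and miR-23b at -0.38 on the reference assays, and miR-23b at -0.030 on U6 and the SNORDs. UniSp3 without well B23, an alternative added after seeing the data, gave medians of 3.85 for p21 and 2.98 for STAT3. For p21 against STAT3 the median was -1.13 on the reference assays and 1.51 on UniSp3, with 2 members 2-fold higher without centring and 3 on UniSp3, and 3 members 2-fold lower on the reference assays and 1 on UniSp6. For HepG2 against PC-3 with the p21 probe the median of 3.16 became 5.67 without centring, 4.41 on the reference assays, 5.17 on U6 and the SNORDs, 6.72 on UniSp3 and 4.60 on UniSp6, and 5 members were 2-fold higher with undetected wells set to Cq 35.

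A Cq limit of 32 left 3 of 5 members measured against control in HepG2, of which 1 was 2-fold higher with each target probe. The STAT3 median was then 0.024. At that limit 3 members were detected with the HepG2 control probe and 0 with the PC-3 p21 probe. So 5 members were detected in HepG2 only with the p21 probe and 3 with the control probe, and 0 were gained with the p21 probe in PC-3. Against the control in HepG2, 3 differences between members reached 1 log2 unit, where 7 did at the limit of 35. Pairs with miR-23b or miR-27b could no longer be measured there, so the 2 counts cover different pairs. A limit of 37 added miR-24, 1 member, to the PC-3 control purification. The cause of these changes was not tested beyond the centre and limit themselves. The panel's shares were counted only at the limit of 35. Counts of members at 32 and 37 thus have no panel share beside them and are not results particular to the members. Differences between members on a plate do not depend on the centre. With 1 purification per condition, variation between transfections or purifications is unknown, and values near Cq 35 rest on single wells. No paired analysis was possible because each group holds 1 sample and no result comes from a test.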
